A study of Mus musculus with 16 samples.

Results

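Transcription factors that set and keep macrophage identity were followed across mouse bone marrow-derived macrophages through 9 genes, of the 54532 Ensembl gene identifiers in each deposited table: Spi1 (which encodes PU.1), Cebpa, Cebpb, Maf, Irf8, Irf4, Klf4, Klf2 and Pparg. They were chosen by gene symbol, with earlier results of these data known. Marrow cells were grown for 7 days in M-CSF (20 ng/mL), which turns marrow progenitors into macrophages, and then kept for 24 h with or without 70% conditioned medium of the mouse melanoma cell line YUMM1.7 (TCM). The 16 libraries of rRNA-depleted total RNA form 5 groups. WT naive (n = 3) and WT TCM (n = 3) are wild-type cells without and with TCM, and TRAP1 KO TCM (n = 4) are cells lacking TRAP1, a mitochondrial chaperone of the HSP90 family, with TCM. The JMJD3 line, kept in TCM, gave wild-type cells (JMJD3 WT TCM, n = 3) and conditional knockout cells (JMJD3 cKO TCM, n = 3). JMJD3, the product of Kdm6b, is a demethylase of lysine 27 of histone H3. The JMJD3 line was measured only with TCM, so the effect of the medium cannot be read in it. The sources used here do not give the driver of its deletion, nor the age and strain of the mice.

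PU.1 is the ETS-family factor on which the whole myeloid lineage depends, and it opens enhancers at which the other factors bind. C/EBPα drives granulocyte and monocyte progenitors and C/EBPβ takes a larger part in mature and activated macrophages. MAF restrains self-renewal and favours Il10, complement and scavenger receptor genes, IRF8 commits progenitors to the monocyte and dendritic cell fates, and IRF4 serves the response to IL-4. KLF4 and KLF2 are zinc-finger factors of monocyte differentiation and of quiescence, and PPARγ is a lipid-activated nuclear receptor that controls fatty acid uptake and storage.

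Libraries held 15361604 to 22426820 counts. Trap1 had 3 counts in all over the 4 TRAP1 KO TCM libraries, against 1217, 1297 and 1108 counts in WT TCM. Kdm6b was at 25.6 ± 1.02 CPM (CPM are counts scaled to a common library size with TMM factors, as mean ± SD over libraries) in JMJD3 cKO TCM and 25.1 ± 1.69 CPM in JMJD3 WT TCM, and if only some exons were deleted these counts cannot check it. All 8 macrophage markers were detected in every group, with sums of 12818 to 26832 CPM per library, which bears on the labelled cell type and not on the genotypes. Lyz2 carried most of this range, at 4492 to 18190 CPM, while the other 7 summed to 7882 to 8865 CPM. Xist was at 840.3 to 936 CPM and Ddx3y at 0 in the JMJD3 line, while Ddx3y was at 83.9 to 91.7 CPM and Xist at 0 to 0.0497 CPM in the other 10 libraries. Sex and line therefore cannot be told apart when both sets are compared. Whether replicates are separate mice or cultures is not in the labels, so p-values rest on a spread between libraries that may be only technical. In bulk RNA, fewer cells of a type and less RNA per cell cannot be told apart.

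The promoters of the C/EBP and KLF pairs are shown because Cebpa and Cebpb went in opposite directions, and Klf2 passed the test after TCM where Klf4 did not. The sequences are RefSeq windows upstream of the annotated start (GRCm38.p6), which held an entry for 7 of the 9 genes. They are written 5′ to 3′ on the strand of the gene. Capitals mark matches, on either strand, to CCNCNCCC (the CACCC-like letters that KLF and SP proteins bind) and to TATAAA (a form of the TATA box). The Klf2 window is shortened to the 221 bases before the start in GENCODE M21, and the other windows have 250 bases.
Cebpa, chr7:35119043-35119292, plus strand: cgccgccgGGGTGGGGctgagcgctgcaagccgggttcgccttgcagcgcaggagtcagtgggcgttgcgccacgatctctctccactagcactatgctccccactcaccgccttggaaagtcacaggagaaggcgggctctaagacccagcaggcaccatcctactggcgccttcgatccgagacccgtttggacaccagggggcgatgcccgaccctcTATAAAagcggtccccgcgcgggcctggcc
Cebpb, chr2:167688665-167688914, plus strand: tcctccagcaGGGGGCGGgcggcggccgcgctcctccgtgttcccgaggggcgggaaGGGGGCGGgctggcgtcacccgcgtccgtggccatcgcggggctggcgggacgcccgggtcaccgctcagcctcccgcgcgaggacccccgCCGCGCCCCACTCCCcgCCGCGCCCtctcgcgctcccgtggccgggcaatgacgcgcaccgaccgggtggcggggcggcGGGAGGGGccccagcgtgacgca
Klf4, chr4:55532476-55532725, minus strand: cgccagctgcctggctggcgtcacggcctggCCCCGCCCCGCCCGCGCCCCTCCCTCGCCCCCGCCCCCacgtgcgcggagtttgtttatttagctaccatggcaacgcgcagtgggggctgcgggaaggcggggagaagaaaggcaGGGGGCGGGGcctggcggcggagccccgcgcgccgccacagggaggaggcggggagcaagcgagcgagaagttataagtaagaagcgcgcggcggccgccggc
Klf2, chr8:72318812-72319032, plus strand: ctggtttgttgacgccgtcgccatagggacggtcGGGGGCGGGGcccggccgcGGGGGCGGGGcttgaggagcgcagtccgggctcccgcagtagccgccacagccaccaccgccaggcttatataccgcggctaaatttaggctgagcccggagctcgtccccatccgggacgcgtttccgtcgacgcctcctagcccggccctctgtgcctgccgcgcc

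The KLF letters occurred once in the Cebpa window, 6 times in that of Cebpb, 9 times in that of Klf4 and 4 times in that of Klf2, counting overlapping matches. Of 32851 windows of this length in the table, 45.9% held at least 1 match. TATAAA stood 30 to 25 bases before the Cebpa start and was not among the letters of the other windows shown, against 12.4% of all windows. Only these exact letters were searched. TATAAG, which differs in the last base, stands in the Klf4 window and in the 29 bases left out of the Klf2 window. The letters searched for C/EBP (TTGCNNAA, 9.56% of windows), PU.1 (GAGGAA, 23.3%), MAF (TGCTGA, 16.1%), the IRF element (2.98%) and the PPARγ-RXR element (0.0335%) had no match in these 4 windows. G and C made up 81.6% of the Cebpb window and 66.4% of that of Cebpa, and the median window held 52.4%.

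Per kilobase of exon, Spi1 had the highest level of the 9 genes in every group and Irf4 the lowest. Spi1 was at 168 ± 1.17 CPM per kb in WT naive (SD, n = 3) and Irf4 at 0.358 ± 0.0395 CPM per kb. In WT naive the order continued with Maf at 78.9 ± 1.45, Cebpa at 69.6 ± 2.79, Cebpb at 62.2 ± 1.89, Irf8 at 34.7 ± 0.258, Pparg at 16.1 ± 0.205, Klf2 at 9.08 ± 0.395 and Klf4 at 2.41 ± 0.163 CPM per kb. Cebpa stood above Cebpb in WT naive alone. In WT TCM, Cebpb had 92.9 ± 1.59 and Cebpa 48.3 ± 0.505 CPM per kb, and Klf2 had passed Pparg (25.1 ± 0.546 against 7.55 ± 0.583 CPM per kb). In both groups of the JMJD3 line Cebpb, not Maf, was second to Spi1. The length used moved Irf8 most: per kilobase of its longest transcript it was at 70.5 CPM per kb in WT naive, above Cebpa at 69.8 CPM per kb.

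**Figure D1:**
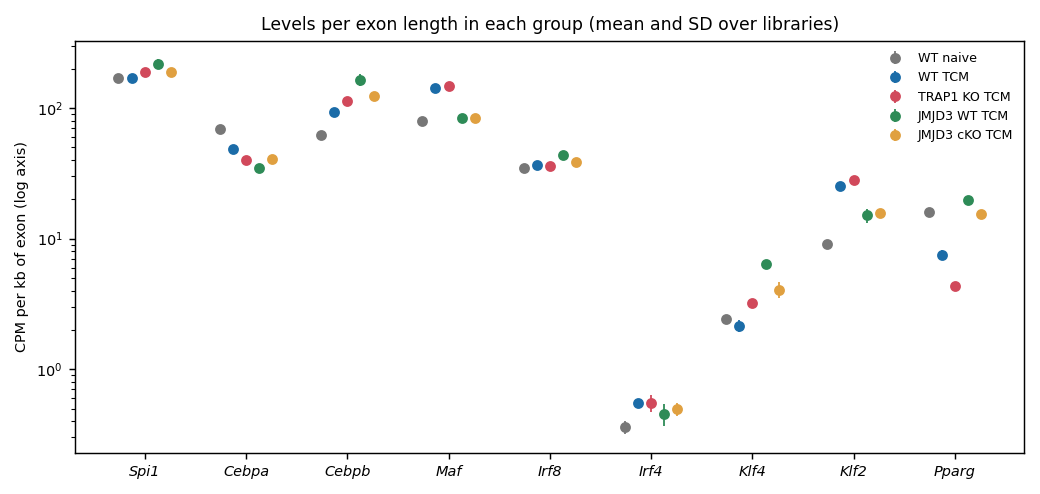
Level of each gene per kilobase of the union of its exons, on a log axis, with points for the mean and bars for the SD over the libraries of a group (n = 3 or 4). Spi1 was highest in all 5 groups, Irf4 was lowest at 0.358 to 0.555 CPM per kb, and Pparg spanned 4.32 to 19.9 CPM per kb.

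The 3 main comparisons were made with edgeR's quasi-likelihood test over all genes, at a Benjamini-Hochberg adjusted p under 0.05. All 9 genes passed the filter on low counts in each. After TCM, 5 of the 9 were higher in wild-type cells (Cebpb, Maf, Irf8, Irf4 and Klf2) and 2 were lower (Cebpa and Pparg), where 21.6% of all genes tested were higher and 20.6% lower. Without TRAP1, in TCM, 5 were higher (Spi1, Cebpb, Maf, Klf4 and Klf2) and 2 lower (Cebpa and Pparg), where 21.2% of all genes were higher and 21.0% lower. In the JMJD3 knockout 1 was higher (Cebpa) and 5 lower (Spi1, Cebpb, Irf8, Klf4 and Pparg), where 17.3% of all genes were higher and 17.8% lower. The 9 genes had a median absolute log2 fold change of 0.58 after TCM, 0.17 without TRAP1 and 0.22 without JMJD3. Over all genes tested it was 0.18, 0.16 and 0.16. The comparisons of TCM and of TRAP1 share the WT TCM libraries, so their values are set side by side and not counted together. With libraries scaled on their totals alone, 71.5% of the genes called in the JMJD3 comparison were higher, against 49.2% with TMM.

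**Figure D2:**
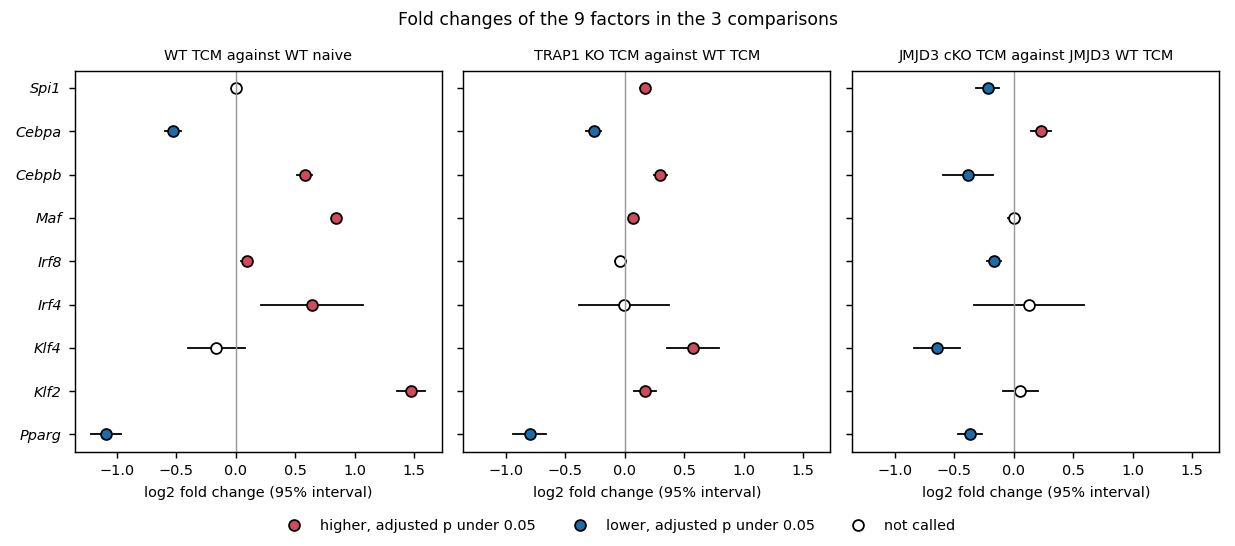
Log2 fold change of each gene with its 95% interval from edgeR in the 3 comparisons. Filled points passed an adjusted p of 0.05 (red higher, blue lower), and open points did not. Klf2 rose most after TCM (1.47) and Pparg fell after TCM (-1.09) and without TRAP1 (-0.80).

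Spi1 (ENSMUSG00000002111, chr2:91082390-91115756, plus strand, GRCm38) did not pass the test after TCM and differed with both genotypes. It measured 454, 457 and 451 CPM in WT naive and 451, 463 and 452 CPM in WT TCM, and these ranges overlapped. The TRAP1 KO TCM libraries held 504, 517, 507 and 504 CPM, all above WT TCM. JMJD3 WT TCM held 552, 638 and 582 CPM and JMJD3 cKO TCM 495, 508 and 512 CPM, again with no overlap, although the wild-type libraries spread more widely (SD 43.7 CPM against 8.84). The log2 fold change was 0.0034 ± 0.019 (SE; 95% interval -0.035 to 0.041) after TCM, with an adjusted p of 0.908 in edgeR. It was 0.17 ± 0.018 without TRAP1 (adjusted p = 1.81e-13) and -0.22 ± 0.044 without JMJD3 (adjusted p = 0.00195). The order of the group means was JMJD3 WT TCM, TRAP1 KO TCM, JMJD3 cKO TCM, WT TCM and WT naive, in which TRAP1 KO TCM overlapped JMJD3 cKO TCM and WT TCM overlapped WT naive.

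Cebpa and Cebpb, both single-exon genes in the annotation, went in opposite directions in each comparison. Cebpa (ENSMUSG00000034957, chr7:35119293-35121928, plus strand) measured 191, 176 and 183 CPM in WT naive, 126, 127 and 129 CPM in WT TCM and 99.1, 105, 106 and 112 CPM in TRAP1 KO TCM, 3 ranges without overlap that stepped down. Its fold change was -0.53 ± 0.032 on the log2 scale after TCM (edgeR, adjusted p = 7.66e-25) and -0.26 ± 0.032 without TRAP1 (adjusted p = 5.81e-11). In the JMJD3 line it rose, from 89.9, 94.7 and 92.0 CPM in the wild type to 104, 107 and 112 CPM in the knockout (0.23 ± 0.041, adjusted p = 1.14e-05). The knockout and TRAP1 KO TCM overlapped. The highest group, WT naive, was 1.99 times the lowest, JMJD3 WT TCM.

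Cebpb (ENSMUSG00000056501, chr2:167688915-167690418, plus strand) measured 93.9, 90.5 and 96.1 CPM in WT naive and 137, 139.6 and 142 CPM in WT TCM. TRAP1 KO TCM held 169.8, 172, 169 and 172 CPM, so the 3 groups stepped up with no overlap. The fold change was 0.58 ± 0.031 after TCM (edgeR, adjusted p = 1.34e-30) and 0.30 ± 0.028 without TRAP1 (adjusted p = 2.15e-16). JMJD3 WT TCM held 217, 268 and 253 CPM and JMJD3 cKO TCM 189.8, 189 and 184 CPM, and the fold change was -0.39 ± 0.082 (adjusted p = 0.0179). The call depended on single libraries: without any 1 of JMJD3 WT TCM replicate 3 or JMJD3 cKO TCM replicates 1, 2 and 3 the adjusted p was 0.0802, 0.0601, 0.0594 and 0.0509, with fold changes of -0.37, -0.40, -0.39 and -0.37. Over all fits with 1 library left out, the fold change without JMJD3 ran from -0.47 to -0.32. All 5 groups of Cebpb were apart from their neighbours in the order JMJD3 WT TCM, JMJD3 cKO TCM, TRAP1 KO TCM, WT TCM and WT naive. Tmem189 overlaps Cebpb on the other strand, and the sources used here do not give the strand setting of the counting. Tmem189 had 145 ± 2.05, 132 ± 4.99 and 111 ± 0.412 CPM in the same 3 groups (WT naive first), lower in each step in which Cebpb was higher. In the JMJD3 line, where Cebpb was highest, Tmem189 was highest too, at 209.9 ± 1.95 CPM in the wild type and 210.3 ± 6.51 CPM in the knockout. The part of the overlap in the level of Cebpb was not tested.

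Within a library, Cebpb over Cebpa per exon length was 0.894 ± 0.0288 in WT naive (SD, n = 3), 1.93 ± 0.0129 in WT TCM and 2.84 ± 0.139 in TRAP1 KO TCM (n = 4). In the JMJD3 line it was 4.67 ± 0.383 in the wild type and 3.05 ± 0.172 in the knockout. A ratio within a library does not depend on how its total is scaled.

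**Figure D3:**
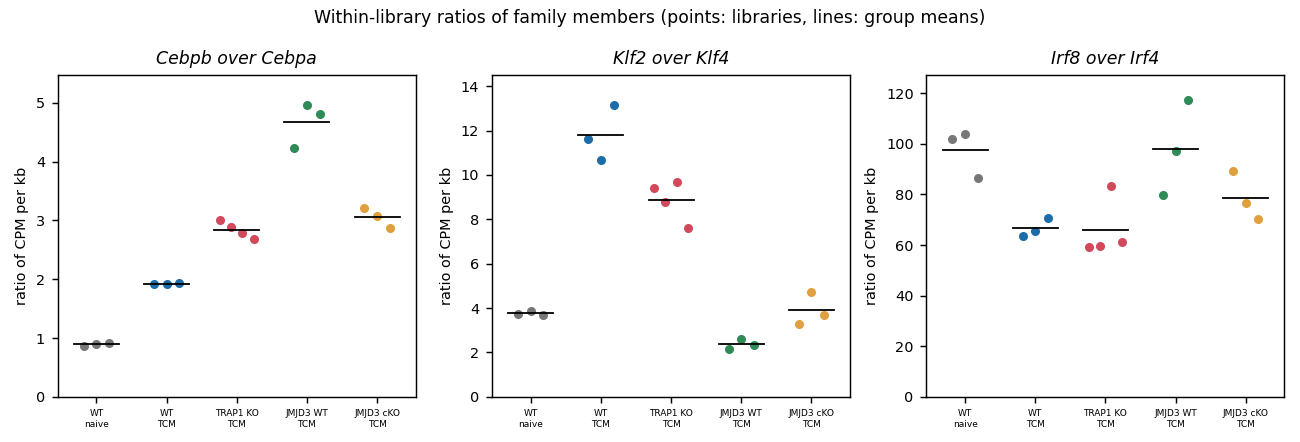
Ratio of CPM per kilobase between related genes within each library, with points for libraries and lines for group means. Cebpb over Cebpa lay between 0.863 and 0.919 in WT naive and between 4.24 and 4.97 in JMJD3 WT TCM, and Klf2 over Klf4 between 10.7 and 13.2 in WT TCM.

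Maf (ENSMUSG00000055435, chr8:115682942-115707794, minus strand) rose after TCM and, less, without TRAP1. It measured 647, 640.1 and 663 CPM in WT naive and 1158, 1193 and 1149.7 CPM in WT TCM, a fold change of 0.84 ± 0.017 (edgeR, adjusted p = 3.10e-63). TRAP1 KO TCM held 1219, 1233, 1229.7 and 1196 CPM, a small rise of 0.072 ± 0.015 (adjusted p = 4.50e-05). JMJD3 WT TCM held 669, 701 and 689.5 CPM and JMJD3 cKO TCM 690.2, 681 and 685 CPM. Their ranges overlapped, the fold change was 0.0025 ± 0.025 (95% interval -0.049 to 0.054) and the adjusted p 0.953, whereas on library totals alone it was 0.084 with an adjusted p of 0.00576.

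Irf8 (ENSMUSG00000041515, chr8:120736358-120756694, plus strand) had the narrowest span of group means, 1.25 times from lowest to highest. It measured 243, 244 and 246 CPM in WT naive and 262, 261 and 258 CPM in WT TCM, a rise of 0.09 ± 0.023 with no overlap (edgeR, adjusted p = 7.78e-04). TRAP1 KO TCM held 256, 245, 256 and 251 CPM. These lay below WT TCM in all 4 libraries, but the fold change of -0.038 ± 0.022 did not pass (adjusted p = 0.164). In the JMJD3 line it fell from 306, 309.9 and 302 CPM to 271, 276 and 269 CPM, a fold change of -0.16 ± 0.029 (adjusted p = 1.21e-05). Over the alternative fits this fold change ran from -0.18 to -0.083. On library totals alone the means were 280 CPM in the wild type and 264 CPM in the knockout. WT naive and TRAP1 KO TCM overlapped at the low end of the order. Of 8 markers of dendritic cells, a type that depends on Irf8, Xcr1 carried most of the summed level in the JMJD3 line, at 6.80 to 9.20 CPM in the wild type and 2.56 to 3.54 CPM in the knockout. The other 7 summed to 1.47 to 2.54 CPM and 1.79 to 2.03 CPM, which overlapped. The part of these markers in the level of Irf8 was not tested.

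Irf4 (ENSMUSG00000021356, chr13:30749226-30766976, plus strand) rested on 28 to 60 counts per library. It measured 1.66, 1.63 and 1.98 CPM in WT naive and 2.88, 2.76 and 2.54 CPM in WT TCM, a rise of 0.64 ± 0.22 (edgeR, adjusted p = 0.0116). TRAP1 KO TCM held 2.998, 2.85, 2.14 and 2.86 CPM, the JMJD3 wild type 2.66, 2.22 and 1.79 CPM and the JMJD3 knockout 2.11, 2.50 and 2.66 CPM. Each neighbour in the order of its 5 group means overlapped. The fold change was -0.0051 ± 0.19 without TRAP1 (95% interval -0.39 to 0.38, adjusted p = 0.987) and 0.13 ± 0.23 without JMJD3 (95% interval -0.33 to 0.59, adjusted p = 0.706). Changes of a size inside those intervals are not excluded by these libraries. Irf8 stood above Irf4 by 97.4 ± 9.49 times per length in WT naive and 66.6 ± 3.68 times in WT TCM, and with the longest transcripts as lengths Irf8 was at 70.5 and Irf4 at 0.369 CPM per kb in WT naive.

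Klf4 (ENSMUSG00000003032, chr4:55527143-55532466, minus strand) did not pass the test after TCM, rose without TRAP1 and fell without JMJD3. It measured 7.40, 6.84 and 7.83 CPM in WT naive and 6.76, 7.06 and 5.77 CPM in WT TCM (-0.16 ± 0.12, 95% interval -0.40 to 0.074, edgeR adjusted p = 0.285). TRAP1 KO TCM held 9.96, 9.41, 8.89 and 10.6 CPM, all above WT TCM, a rise of 0.57 ± 0.11 (adjusted p = 7.70e-06). JMJD3 WT TCM held 18.6, 20.0 and 19.7 CPM and JMJD3 cKO TCM 14.0, 10.5 and 12.6 CPM, a fold change of -0.64 ± 0.10 (adjusted p = 4.62e-07). The highest group was 2.97 times the lowest. Among 11 neutrophil and precursor markers, Csf3r, the G-CSF receptor gene, was ordered like Klf4 over the TCM groups, at 74.2 CPM in WT TCM, 109 CPM in TRAP1 KO TCM, 141 CPM in JMJD3 cKO TCM and 231 CPM in JMJD3 WT TCM. The sum of the other 10 markers was not so ordered, at 4.12 to 5.68 CPM in WT TCM, 3.88 to 5.30 CPM in TRAP1 KO TCM, 21.4 to 25.3 CPM in JMJD3 WT TCM and 39.7 to 41.3 CPM in JMJD3 cKO TCM, so that it was higher without JMJD3, where Klf4 was lower. Of 6 of the 11 tested without JMJD3, 4 were higher and 1 lower (median 0.69). In WT naive the other 10 summed to 50.45 to 54.6 CPM. Of the 11, 7 were tested after TCM, and all 7 were lower (median log2 fold change -2.88). The part of these markers in the result was not tested.

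Klf2 (ENSMUSG00000055148, chr8:72319033-72321656, plus strand) had the largest rise of the 9 genes after TCM. It measured 16.7, 16.1 and 17.5 CPM in WT naive and 47.6, 45.7 and 46.0 CPM in WT TCM, a fold change of 1.47 ± 0.059 (edgeR, adjusted p = 5.20e-39). TRAP1 KO TCM held 56.6, 50.1, 52.2 and 48.9 CPM, a rise of 0.17 ± 0.048 (adjusted p = 0.00255). JMJD3 WT TCM held 24.5, 31.5 and 27.7 CPM and JMJD3 cKO TCM 27.8, 30.3 and 28.3 CPM, which overlapped (0.054 ± 0.073, 95% interval -0.094 to 0.20, adjusted p = 0.619). Klf2 over Klf4 per length was 3.77 ± 0.100 without TCM, 11.8 ± 1.24 with it and 8.87 ± 0.922 in the TRAP1 knockout. In the JMJD3 line it was 2.37 ± 0.217 in the wild type and 3.91 ± 0.748 in the knockout.

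**Figure D4:**
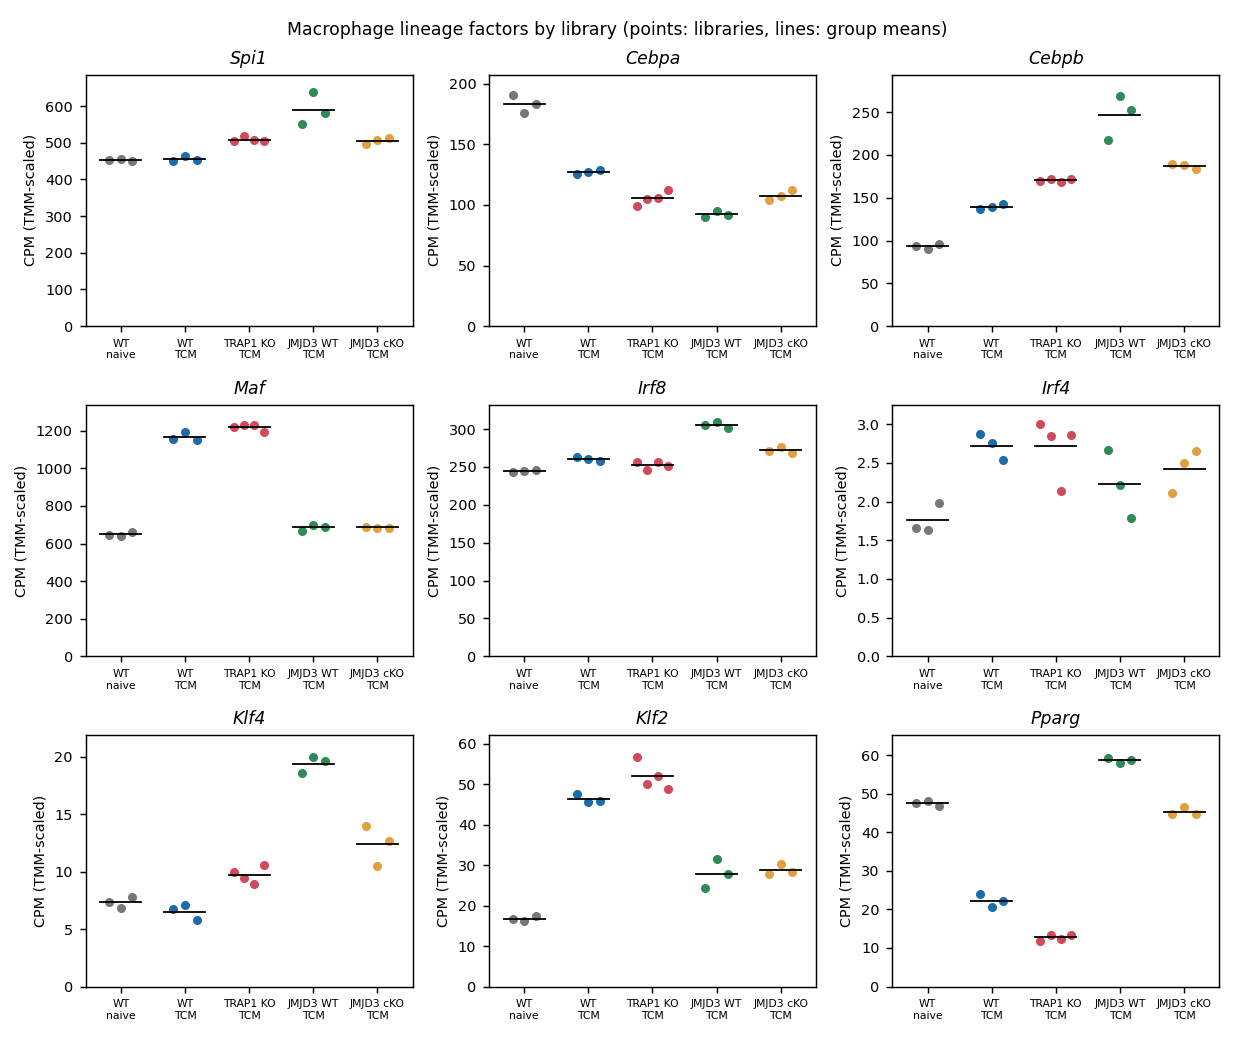
CPM of each gene in every library (points) with the group mean (line), all axes starting at 0. Pparg fell from 47.0 to 48.2 CPM in WT naive to 11.9 to 13.5 CPM in TRAP1 KO TCM, while Maf in the JMJD3 line sat at 669 to 701 CPM, below both TCM groups of the other set.

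Pparg (ENSMUSG00000000440, chr6:115360951-115490399, plus strand) fell in all 3 comparisons. It measured 47.6, 48.2 and 47.0 CPM in WT naive, 24.1, 20.6 and 22.2 CPM in WT TCM and 11.9, 13.3, 12.3 and 13.5 CPM in TRAP1 KO TCM, with no overlap. The fold change was -1.09 ± 0.063 after TCM (edgeR, adjusted p = 1.92e-28) and -0.80 ± 0.07 without TRAP1 (adjusted p = 1.34e-17). JMJD3 WT TCM held 59.2, 58.0 and 58.7 CPM, the highest of the 5 groups, and JMJD3 cKO TCM 44.8, 46.5 and 44.8 CPM (-0.37 ± 0.05, adjusted p = 8.46e-08). The highest group was 4.60 times the lowest, the widest span of the 9 genes. Each group was apart from its neighbours in the order.

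Known target genes of the factors were listed from general knowledge of each factor, but with earlier results of these data known. Each list count below stands beside the shares of all genes tested, 21.6% higher and 20.6% lower after TCM. Those shares were 21.2% and 21.0% without TRAP1, and 17.3% and 17.8% without JMJD3. The medians over all genes given next hold for the later lists too. Among 11 PPARγ target genes, 9 were tested. After TCM 1 was higher and 7 lower, with a median log2 fold change of -0.48 against -0.0071 over all genes. Without TRAP1 none was higher and 7 were lower (median -0.21, against 0.0087 over all genes). Without JMJD3, where Pparg also fell, 5 were higher and 3 lower (median 0.16, against 0.0082 over all genes). Fabp4, a fatty acid carrier, measured 52.4 ± 2.74 CPM without TCM, 22.8 ± 0.834 with it and 11.2 ± 0.771 in the TRAP1 knockout, and 49.3 ± 1.27 and 57.4 ± 3.50 CPM in the JMJD3 wild type and knockout. Abcg1, a cholesterol exporter, fell by 0.50 after TCM, by 0.52 without TRAP1 and by 0.60 without JMJD3 on the log2 scale. Lpl, the lipase that frees fatty acids, went from 2966 ± 37.4 to 1355 ± 31.7 CPM after TCM and from 803 ± 23.4 to 1168 ± 22.9 CPM without JMJD3. The adipocyte marker sum, which is mostly Fabp4, was 49.3 to 54.5 CPM in WT naive and 10.3 to 12.3 CPM in TRAP1 KO TCM, with Adipoq and Lep at 0 in both.

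The targets of MAF, which include scavenger and clotting genes of resident-like macrophages, had 7 of 9 tested genes higher and 2 lower after TCM. Without TRAP1 8 were higher and none lower, and without JMJD3 4 were higher and 2 lower. The medians were 0.13, 0.34 and 0.13. F13a1, the clotting factor XIII A chain, went from 3.72 ± 0.238 CPM in WT naive to 90.8 ± 1.89 in WT TCM and 204 ± 5.16 in TRAP1 KO TCM. Mrc1, the mannose receptor, went from 606 ± 7.18 to 2603 ± 46.3 and 3678 ± 30.3 CPM. Il10, which encodes an anti-inflammatory cytokine, fell without JMJD3 (-0.91 ± 0.10, adjusted p = 3.30e-10 in edgeR), and Folr2, a folate receptor, fell after TCM (-1.49 ± 0.039, adjusted p = 1.62e-53).

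Of the C/EBP targets, 3 of 9 tested were higher and 4 lower after TCM, 5 higher and 3 lower without TRAP1, and 1 of 8 higher and 6 lower without JMJD3. Their medians were 0.039, 0.51 and -0.60. Marco, a scavenger receptor for bacteria, rose by 1.76 ± 0.05 after TCM and 1.13 ± 0.036 without TRAP1, and its fold change without JMJD3 was -1.32 ± 0.086. Arg1, arginase 1, rose by 3.59 ± 0.13 without TRAP1. Il1rn, the antagonist of the IL-1 receptor, changed by -1.29 ± 0.029 without JMJD3. Cebpd, a relative that is induced in inflammation, rose by 1.23 ± 0.048 after TCM and 0.72 ± 0.038 without TRAP1. It also rose without JMJD3, by 0.22 ± 0.077 (edgeR, adjusted p = 0.0206), but this call was lost under at least 1 alternative.

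For IRF8 targets, 3 of 9 were higher and 6 lower after TCM, 6 higher and 1 lower without TRAP1, and none higher and 5 lower without JMJD3. On library totals alone the last count was 3 higher and 5 lower. The medians were -0.13, 0.12 and -0.17. Cd74, the invariant chain that guides MHC class II, changed by -1.24 ± 0.028 after TCM and 0.86 ± 0.028 without TRAP1, and Ciita, the activator of MHC class II genes, by -1.94 ± 0.36 and 1.10 ± 0.38. Gbp2, an interferon-inducible GTPase, fell without JMJD3 (-1.12 ± 0.036). Of 6 tested IRF relatives, none was higher in any of the 3 comparisons, and 3, 2 and 4 were lower after TCM, without TRAP1 and without JMJD3. Without WT TCM replicate 2 the count for TRAP1 was 1. Irf7 and Irf5 were lower in each, and Irf1 had the largest change without JMJD3 (-0.55 ± 0.032). IRF4 targets gave 2 higher and 1 lower of 4 after TCM and without TRAP1, and 1 higher and 1 lower of 5 without JMJD3.

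PU.1 targets were divided, with 5 higher and 5 lower of 12 after TCM, 6 and 3 without TRAP1, and 4 and 7 without JMJD3 (4 and 5 on library totals alone). Their medians were -0.0069, 0.066 and -0.11. Cd14, the co-receptor for lipopolysaccharide, rose by 2.03 ± 0.019 after TCM and 0.51 ± 0.016 without TRAP1. Csf2ra, a chain of the GM-CSF receptor, fell without TRAP1 (-0.48 ± 0.021), and Fcgr1, the high-affinity Fc receptor, fell without JMJD3 (-0.37 ± 0.023). Of the ETS relatives of PU.1, 3 of 8 were higher and 1 lower after TCM, 4 and 2 without TRAP1, and 1 and 4 without JMJD3. Ets2, which acts downstream of the M-CSF receptor, rose by 1.81 ± 0.032 after TCM and 0.77 ± 0.026 without TRAP1.

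The KLF2 and KLF4 targets had 3 of 8 higher and 4 lower after TCM, 5 higher and none lower without TRAP1, and 3 higher and 3 lower without JMJD3 (3 and 1 on library totals alone), with medians of -0.044, 0.51 and -0.024. Without JMJD3 cKO TCM replicate 1 or 2, and with the replicate number as a block, the count without JMJD3 was 2 higher and 1 lower. Cdkn1a, the cell cycle inhibitor p21, rose by 0.92 ± 0.019 without TRAP1, and S1pr1, a lipid receptor of cell egress, rose by 0.54 ± 0.048 without JMJD3. KLF relatives had 4 of 8 higher and 2 lower after TCM, 4 higher and none lower without TRAP1, and none higher and 4 lower without JMJD3 (1 higher and 2 lower on library totals alone). Of 12 cofactors and partners, 6 were higher and 2 lower after TCM, 7 and 1 without TRAP1, and 3 and 3 without JMJD3. Kdm6b, the JMJD3 gene itself, rose by 1.21 ± 0.12 after TCM and 0.63 ± 0.091 without TRAP1. Runx1, a partner of PU.1, fell without JMJD3 (-0.35 ± 0.037). Of 4 C/EBP relatives, 1 was higher and 1 lower after TCM, and 1 higher and 2 lower in each knockout comparison. Of 3 PPAR and RXR receptors tested, 2, 1 and 1 were higher and none lower in the 3 comparisons. With RLE factors or the 2 groups fitted alone, 1 was higher and 1 lower without TRAP1. On library totals alone, 2 were higher without JMJD3. Factors of tissue macrophages gave 4 higher and 5 lower of 13 after TCM, 6 and 3 without TRAP1, and 2 and 6 without JMJD3 (2 and 3 on library totals alone). Of 3 tested factors of progenitors and other lineages none was higher, and 2, 1 and 1 were lower, the first count being 1 without WT naive replicate 3 or WT TCM replicate 1 or 3. Several target genes stand in more than 1 of these lists, Cd14, Arg1 and Mrc1 among them.

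**Figure D5:**
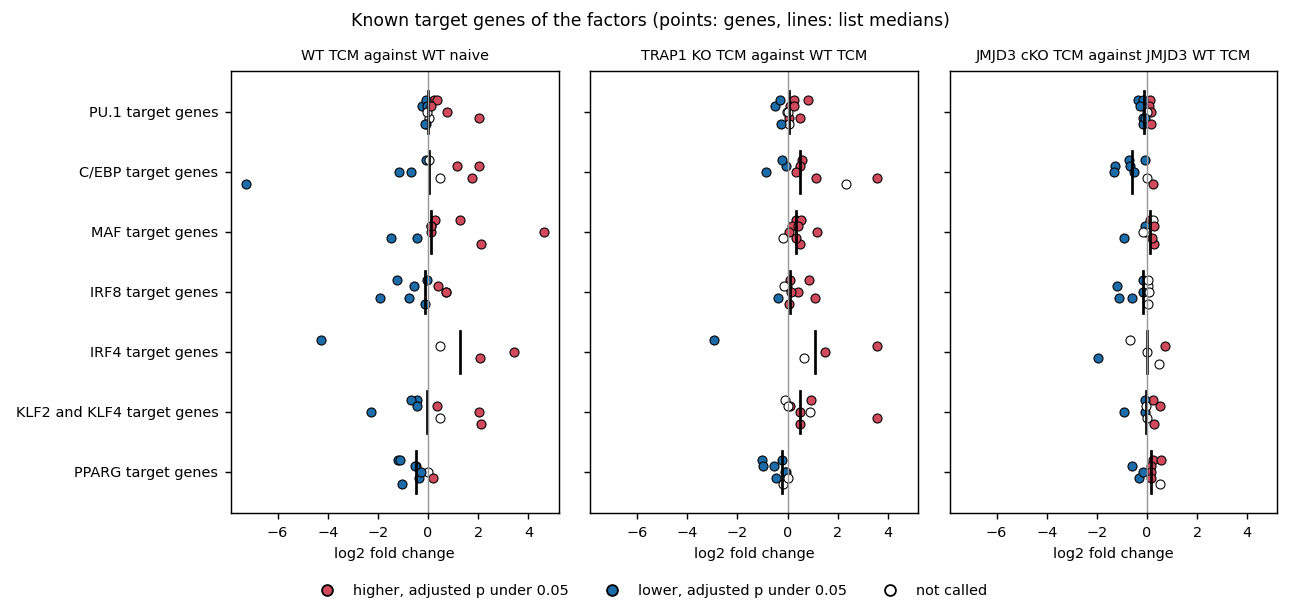
Log2 fold change of each tested target gene (points) and the median of its list (black line) in the 3 comparisons, with filled points past an adjusted p of 0.05 in edgeR. The PPARγ targets had medians of -0.48 and -0.21 after TCM and without TRAP1, and 0.16 without JMJD3.

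Markers of other cell types also differed between groups. The fibroblast marker sum was 13.8 to 14.7 CPM in WT naive, 0.317 to 0.497 CPM in WT TCM and 4.93 to 7.40 CPM in TRAP1 KO TCM. The osteoclast marker sum, which is mostly Acp5, was 75.8 to 81.3 CPM in WT naive and 25.1 to 25.6 CPM in WT TCM. The endothelial sum, which is mostly Kdr, was 148 to 149 CPM in JMJD3 WT TCM and 61.0 to 66.9 CPM in JMJD3 cKO TCM, with Cldn5 at 0 in both. Their part in the values of the 9 genes was not tested.

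Cells lacking TRAP1 and kept in TCM were also set against WT naive. Here 7 of the 9 genes were higher and 2 lower, where 27.7% of all genes were higher and 28.8% lower. Pparg stood at -1.89 ± 0.062 and Cebpa at -0.79 ± 0.03 on the log2 scale, and Klf2 at 1.64 ± 0.055, Maf at 0.92 ± 0.016 and Cebpb at 0.88 ± 0.028. Klf4 (0.41 ± 0.10), Irf4 (0.63 ± 0.20) and Spi1 (0.17 ± 0.018) were higher as well. Irf8 was at 0.052 ± 0.022 (edgeR, adjusted p = 0.0321), and this call was lost under 7 alternatives, with an adjusted p of up to 0.167, among them the fits without WT naive replicate 1 or 2 or TRAP1 KO TCM replicate 1 or 3.

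The wild-type cells of the 2 sets differed in most of the 9 genes under the same medium. Against WT TCM, JMJD3 WT TCM was higher in 5 and lower in 3, where 30.0% of all genes were higher and 31.3% lower. Klf4 (1.56 ± 0.11), Pparg (1.39 ± 0.059) and Cebpb (0.82 ± 0.055) were higher, with Spi1 and Irf8, and Maf (-0.77 ± 0.02), Klf2 (-0.74 ± 0.064) and Cebpa (-0.46 ± 0.038) lower. Irf4 was at -0.29 ± 0.22 (edgeR, adjusted p = 0.246). The fold change of Irf8, 0.23 as reported, ran from 0.066 to 0.26 over the alternative fits. On library totals alone the median of all genes moved by -0.17, and 31.7% of the called genes were higher, against 48.9% with TMM. Line, sex and any difference in culture cannot be told apart here.

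The effect of losing TRAP1 differed from that of losing JMJD3 for 7 of the 9 genes, in a test of the difference itself. It was more positive for 5 and more negative for 2, where 18.4% and 19.5% of all genes were called in these directions. Klf4 (1.21 ± 0.15, edgeR adjusted p = 1.49e-11), Cebpb (0.68 ± 0.075) and Spi1 (0.38 ± 0.045) were more positive without TRAP1, and Cebpa (-0.50 ± 0.051) and Pparg (-0.44 ± 0.085) more negative, each with an adjusted p of at most 1.15e-05. Irf8 was at 0.12 ± 0.035 and Maf at 0.066 ± 0.027 (adjusted p = 0.0475). On library totals alone Irf8 no longer passed (adjusted p = 0.207), Maf was at -0.0018, and 35.8% of the called genes were in the higher direction, against 48.6% with TMM. The call of Maf was also lost with no filter on low counts (adjusted p = 0.0835) and without any 1 of 10 libraries, those of WT TCM replicates 1 and 3, TRAP1 KO TCM replicates 1, 2 and 3, JMJD3 WT TCM replicates 2 and 3 and JMJD3 cKO TCM replicates 1, 2 and 3, with an adjusted p of 0.0613 to 0.192.

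The genes whose pattern was most like that of each factor were ranked by Pearson r of log2(CPM + 1) over the 16 libraries among 9264 named protein-coding genes averaging at least 5 CPM (9265 for Irf4). The libraries share groups and line, so these values describe the pattern only. For Klf4 the closest were Csf3r (r = 0.98) and Slc30a1 (0.97), a zinc exporter. For Pparg they were Tent5c (0.99) and Serpinb1c (0.99), and for Maf the paired receptors Pilra (0.99) and Pilrb2 (0.99). Cebpa was closest to Tgfbr1 (0.99), a TGF-beta receptor chain, and Lpl (0.98), and Cebpb to Jund (0.99), an AP-1 subunit, and Apobec3 (0.99). Irf8 was closest to the kinase gene Lyn (0.98) and to Tgm2 (0.98), Klf2 to Cd14 (0.98) and Kctd12 (0.98), and Spi1 to Asb6 (0.97) and Arap1 (0.96). Irf4, with its few counts, reached 0.86 with Vps28 and 0.85 with Rmnd5b. Tent5c, for example, averaged 26.5 ± 1.79, 7.57 ± 0.915, 3.22 ± 0.640, 45.4 ± 1.54 and 28.8 ± 1.23 CPM in the order in which the groups were introduced, the ranking that Pparg had except that the JMJD3 knockout stood above WT naive. Spearman's rho of these 18 pairs ran from 0.83 to 0.98, and only 3 of the 18 (Arap1, Lyn and Vps28) were also among the 2 closest genes by rho.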

How the data were processed

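Whole-number read counts per Ensembl gene, 1 table per library, were used as deposited by the authors. Per the labels' protocols, RNA was depleted of rRNA and made into libraries with a TruSeq Stranded kit for an Illumina HiSeq. Per the submitters' processing notes, HISAT, StringTie, Bowtie2, RSEM and mm10 were used. The sources used here do not give their roles, the annotation or the strand setting. Of 54532 identifiers, 54495 matched GENCODE M21 (GRCm38), and the 37 without a match held at most 0.0036% of the counts of a library. The 9 genes and all gene lists were chosen with earlier results of these data known.

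Counts were tested with edgeR 4.0.16 (R 4.3.3, limma 3.58.1): TMM factors, genes kept by filterByExpr with a minimum count of 10, robust quasi-likelihood F test, two-sided, and Benjamini-Hochberg adjustment over all genes tested. The wild-type and TRAP1 KO groups were fitted together, the JMJD3 line alone, and comparisons across both sets on all libraries concerned. CPM used TMM factors over the 16 libraries, and levels between genes were divided by the length of the union of exons. Named list genes were the called genes with the largest change, up to 3 per list and comparison, with a mean of at least 1 CPM. Some list results are not reported here. Abcg1 after TCM was named outside this rule, after its values were seen. Alternatives were RLE factors, library totals alone, DESeq2 1.42.0, no filter, a mean of at least 50 counts, other sets of libraries in the fit, the replicate number as a block, and each library left out in turn. The scripts were tested on simulated data. Precision is set by totals of 15361604 to 22426820 counts and 3 or 4 libraries per group.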

Additional observations from a re-analysis of the deposited data

Results flagged for a closer look

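Irf4 had a low library in TRAP1 KO TCM, replicate 3, at 2.14 CPM, where the other 3 held 2.85 to 2.998 CPM. Its gap to the nearest library, divided by the range of the group, was 0.831, just above Dixon's 95% critical value for 4 samples. The 9 genes were each tested in this way in TRAP1 KO TCM, the only group with 4 libraries, and chance flags about 1 in 20 such tests. Without that library the log2 fold change of Irf4 without TRAP1 was 0.097 (edgeR, adjusted p = 0.751).

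The effects of losing TRAP1 and of losing JMJD3, each against its own wild type in TCM, differed for 7 of the 9 genes in edgeR's test of the difference. The TRAP1 effect minus the JMJD3 effect was 1.21 on the log2 scale for Klf4, 0.68 for Cebpb, 0.38 for Spi1, 0.12 for Irf8 and 0.066 for Maf. It was -0.50 for Cebpa and -0.44 for Pparg. For Spi1, Cebpb and Klf4 the gene rose without TRAP1 and fell without JMJD3, and for Cebpa the reverse was measured. Pparg fell in both, by more without TRAP1. Each effect was measured in 1 line, and line and sex cannot be told apart.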

How the results depend on the processing

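Of 44 calls for the 9 genes in 6 comparisons, 40 kept direction and threshold under all alternatives that gave a value, and the exceptions were Irf8 in TRAP1 KO TCM against WT naive, Cebpb without JMJD3, and Maf and Irf8 in the difference between knockouts. Kept calls could still change in size, as those of Irf8 and Spi1 without JMJD3 did. The mean of at least 50 counts removed Irf4. Reversals concerned values near 0, and the cause was not tested. For Spi1 after TCM the log2 fold change was -0.013 on library totals alone, -0.0046 with no filter and -0.0043 with at least 50 counts, and -0.0083 to 0.011 with 1 library left out. For Irf4 without TRAP1 it was 0.0053 on totals alone and -0.054 to 0.097 with 1 library left out. For Maf without JMJD3 it was -0.0021 with RLE factors, -0.0020 with DESeq2, -0.00045 with at least 50 counts, -0.0019 in a fit of 16 libraries and -0.020 to 0.017 with 1 library left out. With 1 library left out it ran from -0.038 to 0.15 for Klf2 and from -0.0094 to 0.28 for Irf4, both without JMJD3. The difference between knockouts for Maf was -0.0018 on totals alone.

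All 174 counts of called genes and members under the alternatives were within 1.5 times the reported ones. Of the counts of called genes in the related lists, 1358 were within that limit and 34 were not. Of these 34, 18 lay in the difference between knockouts. The KLF2 and KLF4 targets without JMJD3 went from 6 called to 3 with the replicate block and without JMJD3 cKO TCM replicate 1 or 2. Factors of progenitors and other lineages after TCM went from 2 to 1 with DESeq2, with at least 50 counts and without WT naive replicate 3 or WT TCM replicate 1 or 3, and IRF relatives without TRAP1 from 2 to 1 without WT TCM replicate 2. On library totals alone IRF8 targets without JMJD3 went from 5 to 8 and tissue macrophage factors from 8 to 5. Libraries with the same replicate number in their titles showed no shared deviation from their group means. These deviations correlated at -0.029 to 0.028 over 30 same-numbered pairs and at -0.033 to 0.043 over 72 others. Whether same-numbered libraries share a mouse or a batch cannot be read from this. With the replicate number as a block, 5927 genes were called after TCM against 5938, 5577 without TRAP1 against 5944 and 4579 without JMJD3 against 4728, and it changed the call of none of the 9 genes. With longest transcripts as lengths, 20 of 45 levels per kilobase moved by more than their SD, and on totals alone 26 of 45 CPM levels did. By Spearman's rho, 15 of the 18 most similar genes were replaced. Depth limits Irf4 most.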
